A study of Mus musculus with 8 samples.

Results

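RNA-seq of colon biopsies was examined for Kcne3 and the other genes of the apparatus by which colonocytes move chloride, bicarbonate, sodium, protons and potassium. The 10 genes were Kcne3, Kcnq1, Kcnn4, Slc12a2 and Best2, taken as secretory, and Slc26a3, Slc9a3, Slc9a2, Slc4a4 and Atp12a, taken as absorptive. They were found by name among the 26008 genes of the deposited table, and all 10 passed the filter on low values that 19127 genes passed. Kcne3 was selected on its genotype difference, being among the genes with the smallest p in the comparison of these same 8 libraries, and the other 9 genes were added for their roles with that result known. The genotype differences of the 10 genes are therefore given as a description, with their errors and without a test.

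The biopsies came from 4 Penk-/- and 4 Penk+/+ bone marrow chimeras, all male C57BL/6JRj mice. The recipients were wild-type mice, lethally irradiated and then engrafted with marrow from either preproenkephalin-knockout donors of a B6.129 strain (Penk-/-) or wild-type donors (Penk+/+). All 8 mice thus shared the irradiation and the grafting, while the marrow donors differed between the groups. The deletion was carried by haematopoietic cells only, and the epithelium was wild-type in both groups. Whole biopsies hold both, so the cells that gave a transcript were not told apart. Each mouse gave 1 library.

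The colonic epithelium secretes chloride by loading it across the basolateral membrane through the cotransporter NKCC1, encoded by Slc12a2, and releasing it through the apical channel CFTR. Basolateral potassium channels return the potassium taken up with the chloride and keep the cell interior negative, which drives chloride out. KCNE3, a small membrane-spanning beta subunit, binds KCNQ1 and holds this channel open at resting voltages, making the potassium conductance engaged by cAMP, whereas KCNN4 opens with calcium. Surface colonocytes do the opposite work: SLC26A3 takes up chloride in exchange for bicarbonate, SLC9A3 and SLC9A2 take up sodium in exchange for protons, and the ATP12A pump takes up potassium in exchange for protons.

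The 3 potassium channel genes of the secretory group all lay on chromosome 7 (GRCm39, GENCODE M39): Kcne3 at chr7:99825401-99836141, Kcnq1 at chr7:142660099-142980788 and Kcnn4 at chr7:24066915-24086115, all on the plus strand. The 250 bases before the first base of the canonical transcript of each are shown because Kcne3 and Kcnn4 were the members that did not overlap between genotypes and Kcnq1 is the partner of Kcne3 that did overlap. The letters are genome sequence of the plus strand, 5′ to 3′, in lower case, with the E-box CACGTG in capitals. The windows were chr7:99827603-99827852 for Kcne3, chr7:24069438-24069687 for Kcnn4 and chr7:142660730-142660979 for Kcnq1.
Kcne3: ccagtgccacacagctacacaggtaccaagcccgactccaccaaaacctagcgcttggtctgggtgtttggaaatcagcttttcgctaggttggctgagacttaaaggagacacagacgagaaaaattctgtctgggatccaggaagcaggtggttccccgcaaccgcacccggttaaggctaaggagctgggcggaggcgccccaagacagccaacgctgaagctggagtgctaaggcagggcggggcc
Kcnn4: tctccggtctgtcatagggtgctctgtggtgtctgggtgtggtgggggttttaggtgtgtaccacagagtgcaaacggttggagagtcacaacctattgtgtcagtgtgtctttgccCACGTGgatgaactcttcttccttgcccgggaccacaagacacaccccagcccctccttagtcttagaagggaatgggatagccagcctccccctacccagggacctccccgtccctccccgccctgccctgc
Kcnq1: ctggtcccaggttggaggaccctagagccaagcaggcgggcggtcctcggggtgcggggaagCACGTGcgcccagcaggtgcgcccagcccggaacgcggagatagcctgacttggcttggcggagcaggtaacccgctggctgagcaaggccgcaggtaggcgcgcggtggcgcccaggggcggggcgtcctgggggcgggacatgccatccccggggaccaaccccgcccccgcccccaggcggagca
The Kcne3 window held 58.0% G and C and 11 CpG dinucleotides, near the medians of 56% and 11 over the 15168 protein-coding genes tested. Kcnn4 had 58.8% G and C with 6 CpG, whereas Kcnq1 had 74.4% with 24 CpG. The E-box, searched on both strands as the palindrome CACGTG, occurred once before Kcnn4 (first base at -133 from the start) and once before Kcnq1 (-188), and the window of Kcne3 held none. Of all windows of this length, 7.31% held it. The nuclear receptor motif AGGTCA, searched on both strands, was in none of the 3 windows and in 11.8% of all windows. These matches describe letters of the reference and say nothing of a factor bound there. All 3 windows lie inside the annotated genes, so each gene also has a transcript start upstream of its window. The counts therefore hold for the canonical start only. The middle of the Kcnq1 window was not found among RefSeq promoter sequences of its gene, unlike those of Kcne3 and Kcnn4.

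Values are normalized counts, that is reads on a gene divided by the size factor of the library, and differences are given on the scale of log2(value + 1), Penk-/- minus Penk+/+, with the standard error of limma over 4 and 4 mice. Libraries held 33.1 M to 50.7 M reads on genes. Penk itself, the deleted gene, averaged 528 ± 67.5 in Penk-/- and 541 ± 73.2 in Penk+/+ chimeras (mean ± SD, n = 4 each), a difference of -0.03 (SE 0.12), so that in whole biopsies of a wild-type colon it does not check the labels. All 8 epithelial marker genes of the list used were well covered, with summed levels of 466890 to 627590 in Penk-/- and 574160 to 678710 in Penk+/+ chimeras, and Hoxb13, which marks the distal colon, averaged 13654 and 13727. Pbsn, a secretory product of male accessory glands, ranged from 0 to 105660 in Penk-/- and from 0 to 111020 in Penk+/+ chimeras, being highest in Penk-/- replicate 3 and Penk+/+ replicate 4. Differences of the members are also given without these 2 libraries.

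Kcne3 was higher in every Penk-/- chimera than in every Penk+/+ chimera. Its normalized counts were 8142, 7201, 7588 and 6919 in Penk-/- replicates 1 to 4 and 5523, 5343, 5100 and 5682 in Penk+/+ replicates 1 to 4. The lowest Penk-/- mouse, at 6919, stood above the highest Penk+/+ mouse, at 5682. The means were 7462 ± 530 and 5412 ± 250 (SD, n = 4 each), a difference of 0.46 (SE 0.07) or 1.38-fold. Without the 2 libraries rich in Pbsn the difference was 0.48, and with the epithelial marker score as a covariate it was 0.49. Of the exon bases of Kcne3, 254 are shared with genes on the opposite strand (Gm34821 and Gm51453), and the strand setting used in the counting is not given in the sources used here.

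Kcnn4, which encodes the calcium-activated channel of the same membrane, was the other member without overlap. It was at 1353, 1409, 1241 and 1319 in the Penk-/- chimeras and at 1146, 1104, 1091 and 1083 in the Penk+/+ chimeras. The 4 Penk+/+ values lay close together and all of them below the lowest Penk-/- value. The means were 1331 ± 70.5 and 1106 ± 28.2 (SD, n = 4 each), a difference of 0.27 (SE 0.06) or 1.20-fold, and 0.29 without the 2 libraries rich in Pbsn. The Penk+/+ SD of 28.2 was no larger than the square root of the mean, the spread that counting alone would give. Thus 2 of the 10 members were higher without overlap, where 2.89% of all genes tested were, and none was lower without overlap, where 2.74% were. The genotype contrast entered the choice of Kcne3, so nothing is read from these shares.

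Kcnq1, the pore-forming partner of KCNE3, did not follow it. Its counts were 1605, 1912, 1709 and 1917 in Penk-/- and 1553, 1912, 1835 and 1656 in Penk+/+ chimeras. The groups covered nearly the same range, and the difference was 0.04 (SE 0.09), the same without the 2 libraries rich in Pbsn and -0.01 without Penk+/+ replicate 1. Its exons share 1208 bases with genes of the opposite strand, on which Kcnq1ot1 also lies.

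Since KCNE3 acts by binding KCNQ1, the ratio of their levels per length was formed in each mouse. It was 4.86, 3.61, 4.25 and 3.46 in Penk-/- and 3.41, 2.68, 2.66 and 3.29 in Penk+/+ chimeras. The groups were adjacent but did not overlap, with the lowest Penk-/- ratio at 3.46 and the highest Penk+/+ ratio at 3.41. The means were 4.04 ± 0.644 and 3.01 ± 0.394 (SD, n = 4 each). The ratio carries the Kcne3 difference that was used in the selection and is not independent of it. Against Slc12a2 the per-length ratio of Kcne3 averaged 1.66 ± 0.0936 and 1.24 ± 0.268 (SD, n = 4 each), and that of Kcne3 to Kcnn4 3.44 ± 0.317 and 3.0 ± 0.15. Both of these ratios overlapped between genotypes.

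Slc12a2, on chromosome 18, encodes NKCC1, the chloride loader. It was at 11623, 11745, 11273 and 10663 in Penk-/- chimeras and at 10182, 12238, 13567 and 9263 in Penk+/+ chimeras. All 4 Penk-/- values fell inside the wider Penk+/+ range, with a difference of 0.02 (SE 0.11). Its sign was not stable: it was -0.07 without the 2 libraries rich in Pbsn, and from -0.07 to 0.11 when each mouse was left out.

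Best2 (chr8:85733831-85741160, minus strand) encodes bestrophin-2, an anion channel of colonic goblet cells that passes bicarbonate. It was at 1817, 1714, 1613 and 1547 in the Penk-/- chimeras and at 1932, 1757, 2094 and 1831 in the Penk+/+ chimeras. The 3 lowest values were Penk-/- mice, but Penk-/- replicate 1 stood above Penk+/+ replicate 2 and the groups overlapped. The difference was -0.19 (SE 0.08), also without the 2 libraries rich in Pbsn, the only one below 0 among the secretory genes. The 6 goblet cell marker genes had a median difference of -0.04, and none of them passed an unadjusted limma p of 0.05.

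**Figure D1:**
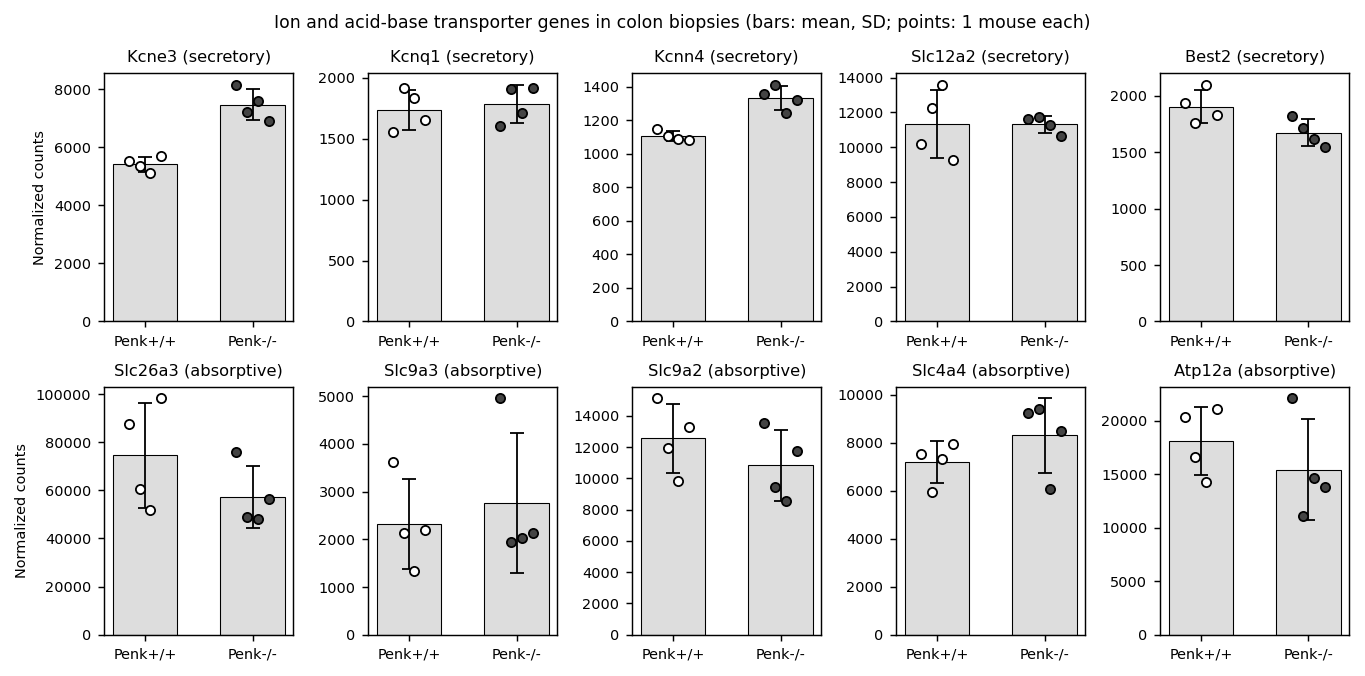
Normalized counts of the 10 genes (y axis, from 0) in Penk+/+ (open circles) and Penk-/- (filled circles) chimeras, 1 circle per mouse, with bars for the mean and error bars for the SD of 4 mice. The filled circles of Kcne3 (6919 to 8142) and Kcnn4 (1241 to 1409) sit wholly above the open ones, and the other 8 genes overlap.

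Slc26a3 (chr12:31440870-31523916, plus strand), the apical chloride-bicarbonate exchanger also called DRA, was the most abundant member. Its counts were 75886, 48983, 48070 and 56278 in Penk-/- and 87646, 60623, 52007 and 98218 in Penk+/+ chimeras. The 2 highest mice were Penk+/+ and the 2 lowest Penk-/-, with overlap between them. The difference was -0.36 (SE 0.22), which became -0.13 without the 2 libraries rich in Pbsn and -0.06 with the epithelial score as a covariate. Leaving out each mouse gave -0.52 (without Penk+/+ replicate 3) to -0.21 (without Penk+/+ replicate 4).

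Slc9a3 (chr13:74269360-74317561, plus strand) encodes NHE3, the main apical sodium-proton exchanger of absorptive cells. It varied more between mice than any other member. The counts were 4951, 1943, 2032 and 2129 in Penk-/- and 3618, 2135, 1343 and 2196 in Penk+/+ chimeras, so that replicate 1 was the highest of each group. The difference of 0.22 (SE 0.35) became -0.10 without Penk-/- replicate 1, -0.02 without Penk+/+ replicate 3, 0.46 without Penk+/+ replicate 1, 0.33 without the 2 libraries rich in Pbsn and 0.71 with the epithelial covariate. In its exons, 380 bases are shared with Exoc3 on the opposite strand.

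Slc9a2 (chr1:40719734-40808433, plus strand) encodes NHE2, a second apical sodium-proton exchanger. It was at 13531, 9472, 8537 and 11773 in Penk-/- chimeras and at 15120, 11958, 9849 and 13290 in Penk+/+ chimeras. Both groups spread widely and overlapped, with a difference of -0.22 (SE 0.17). It was -0.08 without the 2 libraries rich in Pbsn, and from -0.33 (without Penk-/- replicate 1) to -0.11 (without Penk-/- replicate 3) when each mouse was left out. With the epithelial covariate it changed sign, to 0.07. Its exons share 403 bases with opposite-strand genes (Gm37623 and Gm70750).

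Slc4a4 (chr5:89034345-89387514, plus strand) encodes NBCe1, a basolateral sodium-bicarbonate cotransporter. It brings bicarbonate into the cell and is counted as absorptive here by the grouping alone, since the same step also feeds anion secretion. Its counts were 9246, 9418, 6065 and 8486 in Penk-/- and 7533, 5955, 7344 and 7960 in Penk+/+ chimeras. The 3 highest mice were Penk-/-, while Penk-/- replicate 3 was next to the lowest of all 8. The difference was 0.19 (SE 0.15), and 0.39 without the 2 libraries rich in Pbsn, one of which is Penk-/- replicate 3. Leaving out each mouse gave 0.10 (without Penk+/+ replicate 2) to 0.34 (without Penk-/- replicate 3), and the epithelial covariate 0.37.

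Atp12a (chr14:56602262-56626010, plus strand), the colonic proton-potassium pump, was at 22117, 11128, 14678 and 13840 in Penk-/- and at 20415, 16645, 14313 and 21117 in Penk+/+ chimeras. The highest and the lowest mouse were both Penk-/-. The difference was -0.26 (SE 0.20), and it was -0.17 without the 2 libraries rich in Pbsn and -0.04 with the epithelial covariate. Leaving out each mouse gave -0.45 (without Penk-/- replicate 1) to -0.12 (without Penk-/- replicate 2). Its exons share 729 bases with Gm10873 on the opposite strand.

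Taken by role, 4 of the 5 secretory genes had a difference above 0, where 51.1% of all genes tested had one. Their median was 0.04 over the 5 genes. Kcne3, counted among the 4, was selected on its difference. The differences of Kcnq1 and Slc12a2 were smaller than their standard errors and fell below 0 with the epithelial covariate. Of the absorptive genes, 3 of 5 had one below 0, with a median of -0.22. The median over the 10 genes was 0.03 and that over all genes tested was 0.01. The mean of the centred log2 values of the secretory genes was 0.12 higher in Penk-/- chimeras, and that of the absorptive genes 0.09 lower. Kcne3, which was selected on this contrast, enters the secretory mean with 0.46. The other secretory genes differed by 0.04 (Kcnq1), 0.27 (Kcnn4), 0.02 (Slc12a2) and -0.19 (Best2). The absorptive difference changed sign, to 0.21, with the epithelial covariate, to 0.07 without the 2 libraries rich in Pbsn, to 0.0032 without Penk-/- replicate 3 and to 0.02 without Penk+/+ replicate 1. The secretory mean minus the absorptive mean was -0.36, 0.34, 0.33 and 0.10 in Penk-/- replicates 1 to 4 and -0.45, 0.07, 0.34 and -0.36 in Penk+/+ replicates 1 to 4. Low and high mice occurred in both groups, and the group means of 0.10 ± 0.33 and -0.10 ± 0.37 (SD, n = 4 each) overlapped. This difference of 0.20 between genotypes was -0.10 with the epithelial covariate and 0.04 without the 2 libraries rich in Pbsn. With Slc4a4 counted in neither role it was 0.27. It includes the Kcne3 difference used in the selection, and a value without Kcne3 was not computed.

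**Figure D2:**
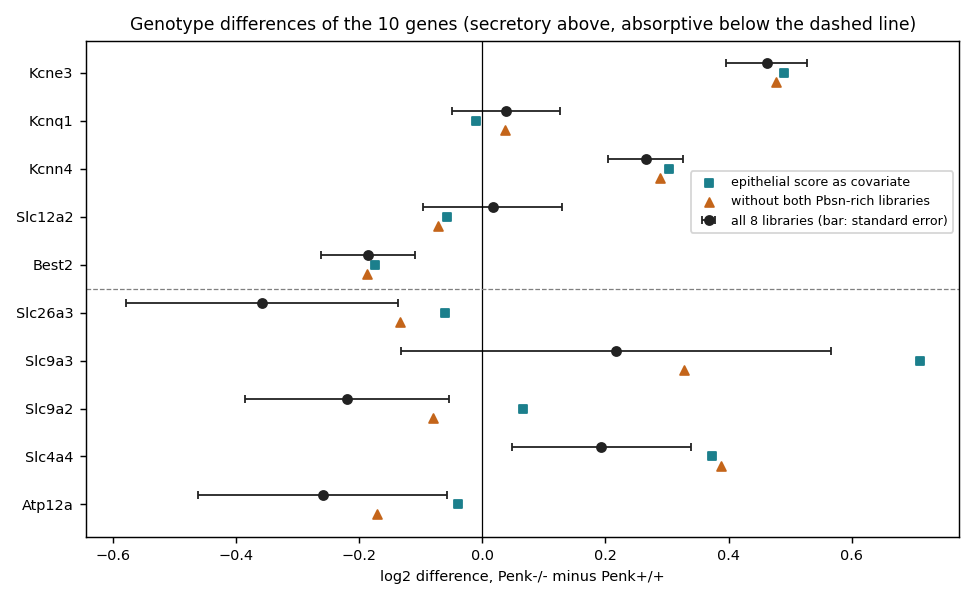
Log2 difference between genotypes (x axis, Penk-/- minus Penk+/+) of the 10 genes from all 8 libraries (circles, bars for the standard error), with the epithelial marker score as a covariate (squares) and without the 2 libraries rich in Pbsn (triangles). Kcne3 and Kcnn4 keep nearly the same value in all 3 fits, whereas Slc9a3 runs from 0.22 to 0.71 and Slc9a2 from -0.22 to 0.07.

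The members differed in how far they spread among the 8 mice. From the lowest to the highest mouse Slc9a3 ranged 3.69-fold, Slc26a3 2.04-fold, Atp12a 1.99-fold and Slc9a2 1.77-fold. Kcne3 ranged 1.60-fold, which takes in the gap between its genotypes, and Slc4a4 1.58-fold. Within genotypes Kcne3 ran from 6919 to 8142 in Penk-/- and from 5100 to 5682 in Penk+/+ chimeras. By this range over both genotypes the other 4 secretory genes were the steadiest members. It was 1.46-fold for Slc12a2, 1.35-fold for Best2, 1.3-fold for Kcnn4 and 1.23-fold for Kcnq1.

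Because biopsies can hold unequal amounts of surface and crypt epithelium, the members were set against marker scores of the same biopsies. The surface colonocyte score (Krt20, Aqp8, Ceacam1, Ceacam20 and Lypd8) was 0.29 lower on the log2 scale in Penk-/- chimeras, with 5 of 5 genes lower and none past an unadjusted limma p of 0.05. The score of crypt and dividing cells (Lgr5, Axin2, Mki67, Top2a and Sox9) was 0.23 higher, with 5 of 5 genes higher and 1, Sox9, past that p. Of all genes tested, 4.30% were higher and 5.33% lower at that p, and 51.1% had a difference above 0. All 8 epithelial markers were lower, with a score difference of -0.16. The parts of these markers in the genotype differences of the members were not tested, and in whole biopsies fewer cells of a type and less RNA per cell cannot be told apart.

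Over the 8 mice, 20 relations were computed, each member against both scores, with exact permutation tests over all 40320 pairings, two-sided and adjusted by Benjamini-Hochberg. Slc9a2 ranked the mice exactly as the surface score did. Its Pearson r was 0.95 (exact permutation p = 0.000174, adjusted p = 0.00347) and its Spearman rho was 1, with p = 4.96e-05, the smallest that the permutations can give (adjusted p = 0.000992). The r was 0.92 without the 2 mice farthest from the median score, 0.96 within Penk-/- and 0.92 within Penk+/+ chimeras. Slc26a3 had r = 0.83 with the surface score (exact permutation p = 0.00652, adjusted p = 0.0261) and rho = 0.93 (adjusted p = 0.0223), with r = 0.87 without the 2 farthest mice.

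With the crypt score the signs were inverted. Slc26a3 had r = -0.94 (exact permutation p = 0.000570, adjusted p = 0.00570), rho = -0.88 (p = 0.00724, adjusted p = 0.0362), and r = -0.93 without the 2 farthest mice. Atp12a had r = -0.91 (exact permutation p = 0.00315, adjusted p = 0.0210), and r = -0.86 without the 2 farthest mice, but its rho of -0.76 had p = 0.0368 and did not pass (adjusted p = 0.0919). Slc9a2 had r = -0.89 (exact permutation p = 0.00528, adjusted p = 0.0261), rho = -0.86 (p = 0.0107, adjusted p = 0.0429) and r = -0.82 without the 2 farthest mice. Subtracting the genotype means first left r at -0.92 for Slc26a3, -0.91 for Atp12a and -0.87 for Slc9a2. The relations rest on bulk levels of genes read from the same libraries.

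The remaining absorptive genes gave mixed results. Slc9a3 followed the surface score by rank (rho = 0.88, exact permutation p = 0.00724, adjusted p = 0.0362) but not by r (0.61, p = 0.114, adjusted p = 0.254), with 0.72 without the 2 farthest mice. Against the crypt score, Slc9a3 had r = -0.58 (exact permutation p = 0.132, adjusted p = 0.264) and rho = -0.83 (p = 0.0154, adjusted p = 0.0513). Neither passed, and subtracting the genotype means gave r = -0.87. Atp12a had r = 0.71 with the surface score (exact permutation p = 0.0442, adjusted p = 0.147). Slc4a4 had r = 0.32 with the surface score and 0.11 with the crypt score, neither of which passed (exact permutation p = 0.457 and 0.780, adjusted p = 0.535 and 0.780).

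No secretory gene passed against either score. Kcne3 had r = -0.38 with the surface score (exact permutation p = 0.370, adjusted p = 0.488) and rho = -0.14 (p = 0.752), and r = 0.36 with the crypt score (exact permutation p = 0.373, adjusted p = 0.488). Within the genotypes its signs were the reverse, with r = 0.30 in Penk-/- and 0.63 in Penk+/+ chimeras against the surface score, and -0.67 and -0.95 against the crypt score. With 4 mice each, these values within genotypes are a description only.

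**Figure D3:**
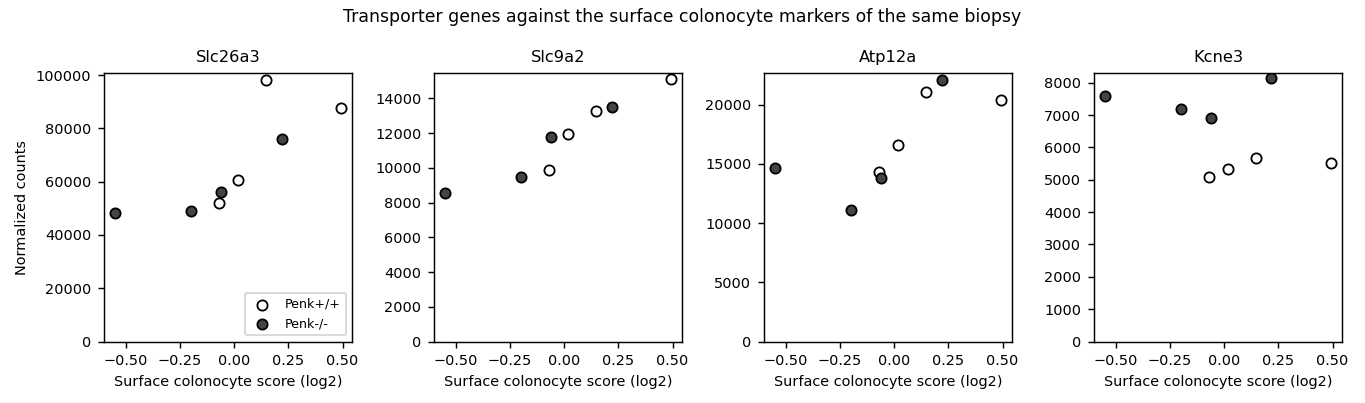
Normalized counts (y axes, from 0) of Slc26a3, Slc9a2, Atp12a and Kcne3 against the surface colonocyte score (x axis, mean centred log2 value of 5 marker genes), 1 circle per mouse, open for Penk+/+ and filled for Penk-/-. Slc9a2 climbs with the score across both genotypes (r = 0.95), whereas the filled circles of Kcne3 form a level of their own above the open ones.

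The same pattern showed between the members. After subtraction of the genotype means, over 8 mice and given as a description, Kcne3 correlated with Atp12a (r = 0.87), Slc9a3 (0.77) and Slc26a3 (0.74), and ran against Kcnq1 (-0.83). It was unrelated to Kcnn4 (-0.04). The absorptive genes correlated with each other, as Slc26a3 did with Slc9a2 (0.87), Atp12a (0.86) and Slc9a3 (0.81). Slc4a4 stood apart from them, with 0.49 to Slc26a3 and 0.17 to Atp12a, and its closest member was Kcnn4 (0.71). Among 14863 genes with a mean of at least 50, those whose deviations were most like those of Kcne3 were Gm12183, a processed pseudogene (r = 0.98), Top1, a DNA topoisomerase (0.97), Zfp933 (0.97), Dnttip2 (0.97) and Tab3 (0.96). None of these 5 differed between genotypes by more than 0.06 on the log2 scale, and 68 genes in all were closer to Kcne3 than Atp12a was. The 5 r values are the largest picked from that many genes over 8 mice, and whether they exceed chance was not tested.

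Per length, that is normalized counts per kilobase of the canonical transcript and averaged over the 8 mice, the members spanned a wide range. Slc26a3 led with 22684 ± 6543 (SD, n = 8), followed by Atp12a with 4032 ± 959 and Slc9a2 with 2329 ± 452, and each of these was above the next in 8 of 8 mice except that Slc9a2 was above Kcne3 in 6. Kcne3 came next, with 2022 ± 365, and was above Slc12a2 (1411 ± 164) in 7 of 8 mice. Slc12a2 was above Slc9a3 (982 ± 449) in 6 of 8. The next genes could not be ranked, Slc9a3 being above Slc4a4 (949 ± 159), and Slc4a4 above Best2 (920 ± 89.6), in 4 of 8 mice each. Kcnn4 (625 ± 66.6) was below Best2 in 8 of 8 mice and above Kcnq1 (578 ± 49.1) in 6 of 8. This order depends in part on the length used. Per kilobase of all annotated exons, Kcnn4 averaged 154, below Kcnq1 at 344. Slc9a3 averaged 333 on that scale, below Slc4a4 (566) and Best2 (806), and Kcne3 (939) lay near Slc12a2 (891).

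Kcne3 was by far the main member of its family in these biopsies. The next beta subunit per length was Kcne4, with 65.8 ± 15.9 (SD, n = 8), then Kcne2 with 6.79 ± 1.69 and Kcne5 with 1.43 ± 1.02. Kcne1 was looked for by name, was not found and has no value here. Kcnq1 likewise stood above the related pore genes Kcnq3, with 12.8 ± 2.17, and Kcnq5, with 12.0 ± 3.1. Per kilobase of canonical transcript, Kcne3 was above its own pore gene in every mouse, by the 2.66-fold to 4.86-fold given above. Cftr, the apical chloride channel, had 887 ± 110 per kilobase, between Best2 and Kcnn4.

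**Figure D4:**
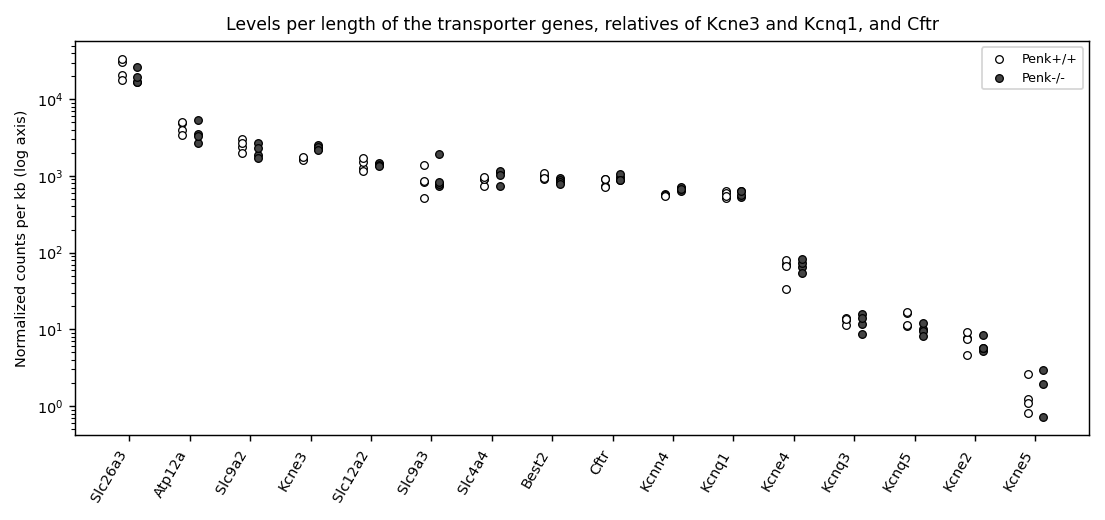
Normalized counts per kilobase of canonical transcript (y axis, log scale) of the 10 genes, Cftr, Kcne2, Kcne4, Kcne5, Kcnq3 and Kcnq5, ordered by mean, 1 circle per mouse, open for Penk+/+ and filled for Penk-/-. Kcne3 (2022 on average) and Kcnq1 (578) stand well above the relatives shown, the highest of which is Kcne4 at 65.8, and 1 mouse with Kcne5 at 0 is not drawn.

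The other genes of colonic electrolyte transport were taken from lists chosen for function, with earlier results of these data known. The 9 lists held 76 genes, without the members. Of these, 72 were in the table by name and 68 passed the filter. With limma, 2 were higher and 5 lower in Penk-/- chimeras at an unadjusted p below 0.05, that is 10.3% of those tested, where 4.30% of all genes were higher and 5.33% lower at that p. None passed after Benjamini-Hochberg adjustment over all 19127 genes, where the share of all genes was 0% (the lowest adjusted p of any gene was 0.132, and 1842 genes passed before adjustment). The median difference of the 68 genes was -0.01, against 0.01 for all genes.

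Among the genes that act with Kcne3 in secretion, Cftr was at 6061, 6710, 5648 and 5568 in Penk-/- and 5747, 4699, 5730 and 4562 in Penk+/+ chimeras. It differed by 0.21 (SE 0.10, limma adjusted p = 0.529), with overlap. Ptger4, a prostaglandin E2 receptor that raises cAMP, differed by 0.16 (SE 0.07, limma adjusted p = 0.524), and Gucy2c, the guanylin receptor, by -0.15 (SE 0.10). None of the 14 receptors, cyclases and kinases, of the 9 other anion channels and exchangers or of the 7 other potassium channels tested passed the unadjusted threshold. In the channel family of Kcne3, Kcnq5 was lower at that threshold, with a difference of -0.46 (SE 0.20, limma adjusted p = 0.501), and it was 1 of the 6 tested.

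On the sodium and proton side, Slc9a5 was higher without overlap (359 ± 26.3 against 308 ± 15.3, SD, n = 4 each, a difference of 0.22, limma adjusted p = 0.474). Slc9a8, the exchanger NHE8, was lower without overlap, at 2321 ± 33.8 against 2603 ± 150 (SD, n = 4 each), a difference of -0.16 (limma adjusted p = 0.425). Of the 68 listed genes tested, 1 was higher and 2 were lower without overlap, where 2.89% and 2.74% of all genes tested were. Atp1b1, the beta subunit of the sodium pump that energizes both secretion and absorption, differed by -0.25 (SE 0.10, limma adjusted p = 0.461). Car13, a carbonic anhydrase, was higher by 0.26 (SE 0.11, limma adjusted p = 0.506) and Slc16a3, a monocarboxylate transporter, lower, by -0.42 (SE 0.16, limma adjusted p = 0.458). Car4, the apical carbonic anhydrase of surface colonocytes, differed by -0.35 (SE 0.17, limma adjusted p = 0.568).

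**Figure D5:**
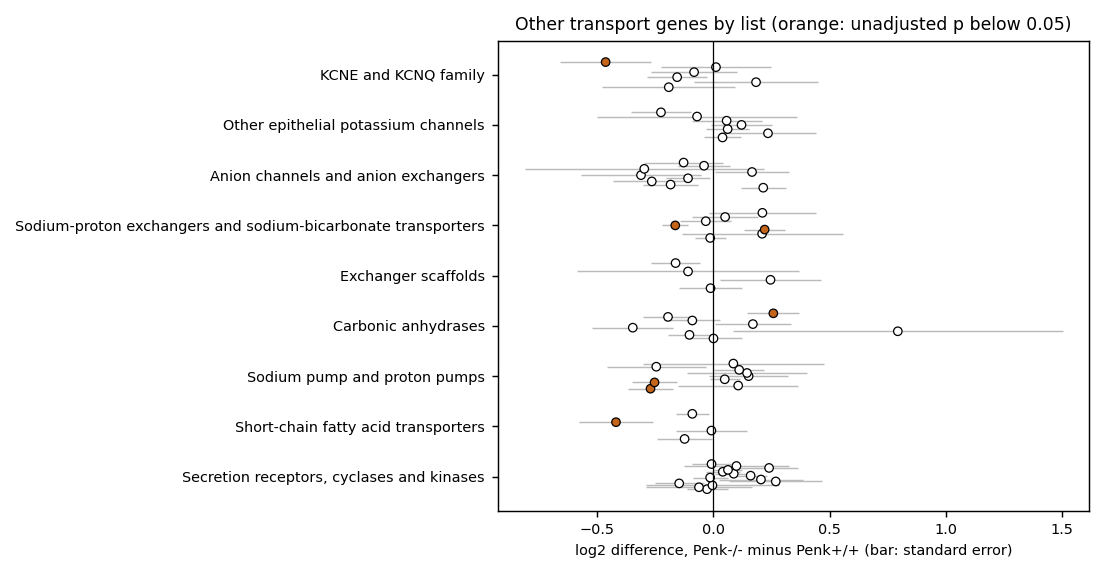
Log2 difference between genotypes (x axis, Penk-/- minus Penk+/+, bars for the standard error) of the 68 other transport genes tested, 1 row of circles per list (y axis). The 7 filled circles mark an unadjusted limma p below 0.05, 2 to the right of 0 and 5 to the left.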

How the data were processed

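Colon biopsies of 4 Penk-/- and 4 Penk+/+ male bone marrow chimeras were sequenced as stranded paired-end poly-A libraries. Per the labels and the study's methods, the authors checked reads with FastQC, aligned them with STAR 2.7.8a to GRCm39 and analysed them with DESeq2 1.30.0. The strand setting of the counting is not given in the sources used here. The authors deposited a signal per gene and mouse, the count scaled by the size factor of its library. All values (100%, tolerance 0.01) were multiples of the step of their library, which gave 33.1 M to 50.7 M reads on genes (median 38.5 M). For the members, the SD between mice exceeded the square root of the mean in both genotypes, except for Kcnn4 in Penk+/+ chimeras. Of 26008 identifiers, 25776 were matched to GENCODE M39 names.

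The genotype comparison used limma 3.58.1 under R 4.3.3 (eBayes with trend) on log2(value + 1), for 19127 genes with a mean of at least 10, without covariates, two-sided, with Benjamini-Hochberg adjustment. The fit was tested on simulated data. A marker score is the mean of log2(value + 1) centred on each gene's mean over the 8 libraries. Exact permutation tests were computed with numpy 2.4.6 over all pairings, with ranks and the adjustment from scipy 1.17.1. The strand of overlapping genes cannot be told apart where counting ignored it. Alternatives were the pseudocount, the filter, the trend, quantile normalization, a replicate block, an epithelial covariate, and leaving out each library or the 2 with the most Pbsn. Count-based tests were not run.

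The members, lists and marker genes were chosen with earlier results of these data known. The genes named are every member, Penk, Pbsn, the 3 genes of each list with the smallest limma p, and the 5 genes whose deviations from the genotype means correlated best with those of Kcne3. Other KCNE and KCNQ genes, Cftr and some marker genes were named for their levels. Values of some listed genes are not reported here. Replicates are single mice.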

Additional observations from a re-analysis of the deposited data

Results flagged for a closer look

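The 10 members, their 3 means by role and listed transport genes gave 76 groups of 4 mice, in which a mouse far from the other 3 was looked for by Dixon's ratio, the gap to the nearest mouse over the range of the group, at its 95% critical value. Chance gives about 1 in 20, that is 3.8 of 76, and 1 was found. Slc9a3 was highest in Penk-/- replicate 1, at 4951 against 1943 to 2129 in the other 3 mice (ratio 0.938). What sets this mouse apart was not tested.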

How the results depend on the processing

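The difference of Kcne3 stayed above 0 in all 17 alternatives (0.42 to 0.51), as did that of Kcnn4 (0.24 to 0.30). Best2, Slc26a3, Slc4a4 and Atp12a also kept their sign in all 17, Slc9a2 in 16, Kcnq1 and Slc9a3 in 15 and Slc12a2 in 12. The filter settings, the trend and the replicate block cannot change a member's difference here. The pseudocounts barely moved that of Kcne3, to 0.4619 and 0.4613 from 0.4618. These sign counts therefore hold fewer than 17 separate checks. With the epithelial covariate Slc9a2 moved to 0.07. The number of genes past an adjusted limma p of 0.05 was 0, but 1 with quantile normalization and 1 with the epithelial covariate (Scnn1g in both), and it ranged from 0 to 6 when each mouse was left out, with 6 without Penk-/- replicate 1. The labels do not say whether the replicate numbers pair the mice. The deviations of same-numbered mice correlated at 0.15, -0.04, -0.32 and -0.16, and those of differently numbered mice at -0.37 to 0.56. These values do not decide whether the mice are paired. With a replicate block 2938 genes instead of 1842 had an unadjusted p below 0.05, 1 gene (Duox2) passed the adjustment, and 13 listed transport genes instead of 7 passed the unadjusted threshold. That number was 14 with the epithelial covariate and ranged from 2 (without Penk-/- replicate 2) to 8 when each mouse was left out, with 4 without replicate 4 of either genotype. Among the other listed genes named, the epithelial covariate turned the sign of Kcne4 (-0.14), Ano1 (0.011), Clcn2 (0.0104), Nherf2 (-0.0283), Slc5a8 (0.0447) and Gucy2c (0.0154). Leaving out each mouse, Kcne4 ranged from -0.10 to 0.32 and Pdzk1 from -0.43 to 0.11. Fxyd4 turned to 0.081 without the 2 libraries rich in Pbsn and Bsg to 0.0029 with quantile normalization. The cause of these changes was not tested. Tests of the recovered reads with edgeR and DESeq2 were planned and not run. Pdzk1 fell below the filter without Penk+/+ replicate 4 and has no value there. Kcnn4, the least covered member on average, had 1083 to 1409 normalized counts, and its spread in Penk+/+ chimeras was at the level of counting error.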
